A study of Mus musculus with 10 samples.

Results

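The Wnt ligand genes examined here encode 10 secreted signalling proteins of the Wnt family: Wnt3, Wnt3a, Wnt4, Wnt5a, Wnt5b, Wnt7a, Wnt7b, Wnt9a, Wnt10a and Wnt11. They were chosen by symbol from the 22180 genes of the deposited array table, using probe sets annotated with exactly 1 gene symbol, and each was measured by 1 probe set. Expression was measured on 5 arrays of Axin2+ cells and 5 arrays of SP-C+ cells from mouse lungs at postnatal day 4, a time when alveoli are forming. Both populations carry the label of type 2 alveolar epithelial cells (AEC2s), which make surfactant and are progenitors of the thin AEC1s that line the gas-exchange surface.

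Axin2+ cells came from Axin2CreERT2-TdTomato mice and were sorted as positive for TdTomato and the epithelial protein EpCAM and negative for CD31 and CD45, which mark endothelial cells and leukocytes. SP-C+ cells came from SftpcCreERT2-R26REYFP mice and were sorted on YFP after lineage tracing. In these lines a tamoxifen-dependent Cre is driven by Axin2, a canonical Wnt target, or by Sftpc, the surfactant protein C gene, so the comparison sets cells marked as Wnt-responsive against AEC2s marked through Sftpc. Cells of both groups received no treatment according to the labels, although lineage tracing with a tamoxifen-dependent Cre needs tamoxifen. The name of the Axin2 line does not say whether TdTomato depends on Cre or marks current Axin2 expression. A direct reporter in one group and a lineage trace in the other would also change together with the cell label. All mice had a mixed background of C57BL/6, 129S6 and CD-1. Mouse line, reporter and sort gate change together with the cell label and cannot be told apart from it, nor could any difference in tamoxifen induction. The labels do not say whether replicates were separate animals, so p-values rest on array-to-array spread that may be partly technical.

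Wnt proteins are lipid-modified in the endoplasmic reticulum, carried to the cell surface and bound by Frizzled receptors and their coreceptors on the same or nearby cells. Canonical signalling stabilizes beta-catenin, which acts with TCF and LEF factors to switch on targets such as Axin2. Other Wnt signals act through receptors such as Ror2 without beta-catenin. In the lung, Wnt7b from the epithelium is known to drive growth of the developing organ and its vessels, and canonical Wnt signalling supports AEC2 growth and self-renewal.

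Values are log2 probe set levels, and differences are Axin2+ minus SP-C+ on that scale. A gene passed at a Benjamini-Hochberg adjusted p under 0.05 in limma, adjusted over all 22180 genes. Of the 16 AEC2 markers listed, all lay above the array median on every array of both groups, and their mean level was 12.55 to 12.65 on Axin2+ and 12.72 to 12.79 on SP-C+ arrays. The SP-C+ arrays were not uniform: Notum, a secreted Wnt deacylase gene, lay between 6.51 and 6.89 on Axin2+ arrays, but at 6.53, 6.42 and 6.29 on SP-C+ replicates 1, 2 and 3 and at 7.27 and 7.52 on replicates 4 and 5. Results were also computed without replicates 4 and 5 and without replicates 1, 2 and 3, a split chosen after values of these arrays had been seen. Notum and Apcdd1 are counted among both the inhibitors and the targets below. Lgr5, Rnf43 and Znrf3 are counted in both the R-spondin system and the targets. The counts of those lists under the split are therefore descriptions, and they share genes. In bulk samples, fewer cells of a type and less RNA per cell cannot be told apart.

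Of the 10 Wnt ligand genes, 5 passed the test. Wnt3a, Wnt7a, Wnt4, Wnt11 and Wnt7b were higher in Axin2+ cells, by 6.71-fold down to 1.42-fold, and 0 of the 10 were lower in limma, also at an unadjusted p under 0.05. Over all genes, 8.61% passed as higher (1909) and 8.95% as lower (1985), and with each array centred on its median the counts were 1751 and 2552. Wnt3a, Wnt7a and Wnt4 rose by at least 1 on the log2 scale, as did 2.89% of all genes. The groups did not overlap for the same 5 members, against 7.38% of all genes that lay wholly higher. Among the 10 members the median difference was 0.39, against -0.04 over all genes tested and -0.04 over the other 9 Wnt ligand genes. The 10 were chosen with earlier results of these data known. Their counts and median therefore describe this list and not the Wnt family. In the fit without SP-C+ replicates 4 and 5, 5 members passed as higher, and without replicates 1, 2 and 3, 4 did. Of these 5 genes, Wnt7b was the one that no longer passed there.

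**Figure D1:**
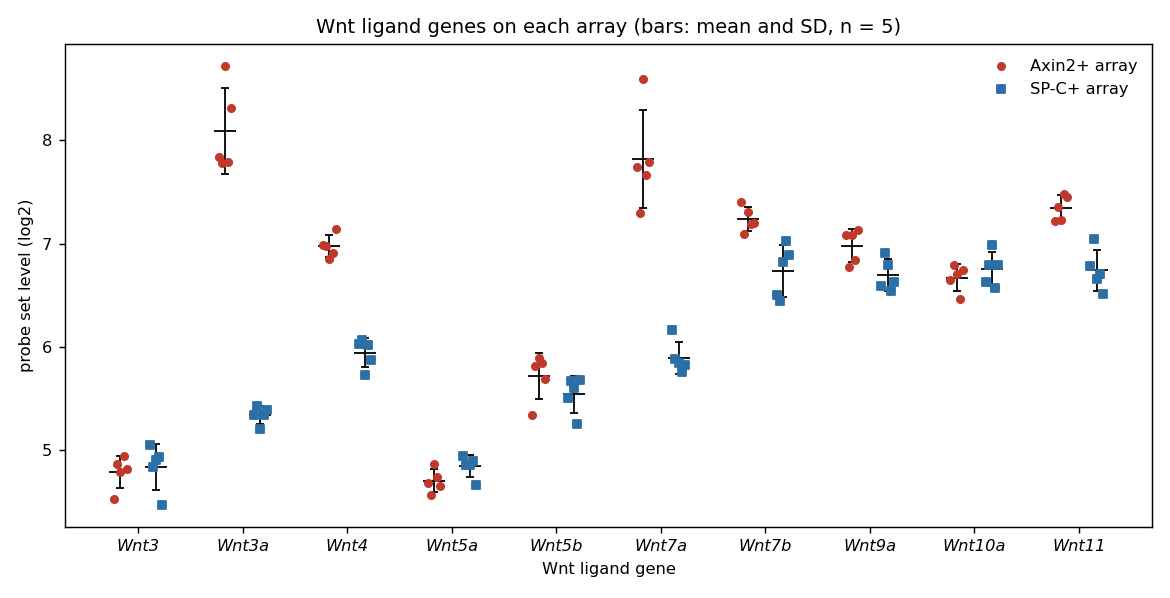
Level of each Wnt ligand gene (log2 probe set value, vertical axis) on the 5 Axin2+ arrays (circles, left of each pair) and the 5 SP-C+ arrays (squares, right), with mean and SD as black bars. Wnt3a and Wnt7a show the widest separation of the groups, whereas the groups overlap for Wnt3, Wnt5a, Wnt5b, Wnt9a and Wnt10a; heights of different genes should not be compared, because probe sets differ in sensitivity.

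Wnt3a, a canonical ligand needed for formation of the trunk and tail of the embryo, had the largest difference of the 10. Its level was 7.84, 7.78, 8.72, 7.79 and 8.31 on Axin2+ arrays 1 to 5, and 5.34, 5.43, 5.20, 5.34 and 5.39 on SP-C+ arrays 1 to 5. Every Axin2+ array exceeded every SP-C+ array by more than the whole range within either group. The SP-C+ values were tightly bunched, while Axin2+ replicates 3 and 5 stood above the other Axin2+ arrays. Means were 8.09 ± 0.42 in Axin2+ and 5.34 ± 0.09 in SP-C+ cells (SD, n = 5 each), a difference of 2.75 ± 0.16 SE (95% interval 2.39 to 3.10, adjusted p = 9.22e-08 in limma).

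Wnt7a, best known for patterning of the limb and the female reproductive tract, came next. Axin2+ arrays 1 to 5 measured 7.74, 7.30, 8.59, 7.66 and 7.79, against 6.16, 5.88, 5.84, 5.76 and 5.82 on SP-C+ arrays. As with Wnt3a, Axin2+ replicate 3 was the highest array and the groups were well apart. The means of 7.81 ± 0.47 in Axin2+ and 5.89 ± 0.16 in SP-C+ cells (SD, n = 5 each) differed by 1.92 ± 0.19 SE, or 3.79-fold (adjusted p = 1.02e-05).

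Wnt7b, the close relative of Wnt7a and the ligand with the best-described role in lung epithelium, showed the smallest difference among the 5. It measured 7.40, 7.09, 7.31, 7.19 and 7.20 on Axin2+ arrays, against 6.50, 6.44, 6.82, 7.02 and 6.89 on SP-C+ arrays. The ranges were separate but nearly met, with Axin2+ replicate 2 close to SP-C+ replicate 4. Wnt7b averaged 7.24 ± 0.12 in Axin2+ and 6.73 ± 0.25 in SP-C+ cells, a difference of 0.50 ± 0.12 SE (adjusted p = 0.00879). Without SP-C+ replicates 1, 2 and 3 the difference was 0.29 and the adjusted p 0.113, in a fit with fewer arrays.

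Wnt4, which directs kidney tubule formation and female reproductive development, changed with the least scatter. It lay at 6.99, 6.98, 6.85, 6.91 and 7.14 on Axin2+ arrays and at 6.03, 6.07, 5.73, 6.02 and 5.87 on SP-C+ arrays. The gap between the groups was wider than the range of either. The means were 6.98 ± 0.11 in Axin2+ and 5.94 ± 0.14 in SP-C+ cells, a 2.05-fold difference (1.03 ± 0.09 SE, adjusted p = 2.47e-06).

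Wnt11, a ligand of cell movement during gastrulation and of kidney branching that often signals without beta-catenin, was also higher. Axin2+ arrays measured 7.22, 7.35, 7.23, 7.48 and 7.45, against 6.78, 7.04, 6.66, 6.71 and 6.51 on SP-C+ arrays. SP-C+ replicate 2 came nearest to the Axin2+ range without reaching it. The difference was 0.61 ± 0.10 SE, or 1.52-fold (7.35 ± 0.12 in Axin2+ and 6.74 ± 0.19 in SP-C+ cells, adjusted p = 0.00102).

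RefSeq promoter windows on build GRCm38.p6 are shown for 4 of the 5 genes that rose, because these stretches could be set beside their joint rise. A window was found for 7 of the 10 members, and Wnt5a, Wnt7b and Wnt10a had none in the table used. Each sequence covers the 250 bases before the annotated start, 5′ to 3′ on the gene's strand. In Wnt3a, Wnt7a and Wnt4 capitals mark the GC box GGGCGG on either strand, overlaps included, and in Wnt11 they mark the TCF/LEF core CTTTGA or CTTTGT on either strand.
Wnt3a at chr11:59290752-59291001, minus strand: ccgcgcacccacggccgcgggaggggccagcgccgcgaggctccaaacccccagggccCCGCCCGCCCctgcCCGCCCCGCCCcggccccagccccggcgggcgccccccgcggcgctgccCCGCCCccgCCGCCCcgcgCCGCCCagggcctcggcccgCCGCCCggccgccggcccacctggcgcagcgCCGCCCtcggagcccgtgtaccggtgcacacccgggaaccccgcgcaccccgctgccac
Wnt7a at chr6:91411354-91411603, minus strand: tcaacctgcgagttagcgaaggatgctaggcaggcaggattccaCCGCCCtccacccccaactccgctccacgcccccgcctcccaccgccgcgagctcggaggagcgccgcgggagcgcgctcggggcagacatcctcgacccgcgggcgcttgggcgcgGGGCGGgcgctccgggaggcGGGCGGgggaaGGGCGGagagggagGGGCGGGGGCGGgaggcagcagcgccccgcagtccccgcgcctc
Wnt4 at chr4:137277385-137277634, plus strand: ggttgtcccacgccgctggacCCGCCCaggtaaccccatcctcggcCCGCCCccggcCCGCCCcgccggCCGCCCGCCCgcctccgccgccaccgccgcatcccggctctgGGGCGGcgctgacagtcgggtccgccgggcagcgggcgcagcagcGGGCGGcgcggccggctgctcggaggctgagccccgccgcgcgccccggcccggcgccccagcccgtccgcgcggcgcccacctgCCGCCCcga
Wnt11 at chr7:98834862-98835111, plus strand: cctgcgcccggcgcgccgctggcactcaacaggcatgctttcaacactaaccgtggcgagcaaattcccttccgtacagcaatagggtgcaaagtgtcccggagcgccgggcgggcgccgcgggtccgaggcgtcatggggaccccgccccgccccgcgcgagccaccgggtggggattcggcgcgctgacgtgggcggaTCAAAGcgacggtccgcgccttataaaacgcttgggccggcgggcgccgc

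These 4 windows were rich in G and C, at 87.6% for Wnt3a, 77.6% for Wnt7a, 85.2% for Wnt4 and 70.8% for Wnt11, against a median of 52.4% over all 32851 windows. GC boxes numbered 9 in the Wnt3a window, 8 in that of Wnt4 and 6 in that of Wnt7a. At least 1 lay in 32.7% of all windows, and 5 or more in 1.93%. The Wnt9a window, whose gene did not pass, had the same character with 84.4% G and C and 5 GC boxes. Wnt3 and Wnt5b did not pass either. The Wnt3 window had 68.0% G and C and 2 GC boxes, and the Wnt5b windows had 53.2% to 75.2% and 0 to 2. The Wnt11 window held 4 GC boxes. A TCF/LEF core lay 50 bases before the start in that window and 71 bases before the start in 1 window of Wnt5b, which did not pass, and was not found in the printed windows of Wnt3a, Wnt7a and Wnt4. Of all windows, 27.6% held this core. A second Wnt11 window in the table held neither motif.

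Members that did not pass were given by the same arrays. Wnt9a, a ligand of joint formation, measured 7.08, 6.77, 7.08, 6.84 and 7.13 on Axin2+ arrays, against 6.59, 6.91, 6.79, 6.54 and 6.63 on SP-C+ arrays. The ranges overlapped, and the difference of 0.29 ± 0.10 SE missed the threshold (adjusted p = 0.0694). It passed without Axin2+ replicate 2 (adjusted p = 0.045), without SP-C+ replicate 2 (0.0375) and among genes above the 50th percentile of level (0.0404).

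Wnt10a, a ligand of tooth and skin development, had a range of 6.46 to 6.79 on Axin2+ arrays and 6.57 to 6.99 on SP-C+ arrays, and its difference was -0.08 (95% interval -0.29 to 0.12, adjusted p = 0.625). For Wnt3, a canonical ligand of early embryonic patterning, the range was 4.53 to 4.94 on Axin2+ arrays and 4.47 to 5.05 on SP-C+ arrays, with a difference of -0.05 (interval -0.29 to 0.20, adjusted p = 0.836). The ranges of both genes overlapped between Axin2+ and SP-C+ cells.

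Wnt5a and Wnt5b, which mostly signal without beta-catenin and of which Wnt5a is known in lung as a ligand of distal growth, also stayed within overlapping ranges. Wnt5a measured 4.68, 4.57, 4.87, 4.74 and 4.65 on Axin2+ arrays, against 4.94, 4.86, 4.86, 4.89 and 4.66 on SP-C+ arrays (difference -0.14, interval -0.32 to 0.04, adjusted p = 0.285). Wnt5b lay at 5.34 to 5.89 on Axin2+ and 5.25 to 5.68 on SP-C+ arrays (0.17, interval -0.08 to 0.43, adjusted p = 0.368). Wnt3 and Wnt5a sat low on the array, where 25.7% of genes had a lower mean than Wnt3 and 25% a lower mean than Wnt5a, and the table carries no detection calls. On SP-C+ arrays the means of Wnt3a, Wnt7a and Wnt4, at 5.34, 5.89 and 5.94, also lay below the array medians over genes, 6.27 to 6.32. Of the 10 members, 4 lay above the array median on every SP-C+ array and 7 on every Axin2+ array. Whether Wnt3a, Wnt7a and Wnt4 were expressed in SP-C+ cells was not tested. Background adds to the signal of dim probe sets, which can understate a change.

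Changes of related or neighbouring members were set side by side in 4 pairs, which were picked after the values had been seen and are given without a test. The Wnt3a and Wnt9a windows lie 15678 bases apart on chromosome 11, and the genes are adjacent in the RefSeq gene table. Wnt3a differed by 2.75 and Wnt9a by 0.29 between Axin2+ and SP-C+ cells. Wnt3, the relative of Wnt3a, differed by -0.05. Between the close relatives Wnt7a and Wnt7b the differences were 1.92 and 0.50, and between Wnt5b and Wnt5a 0.17 and -0.14. Probe sets can differ in how strongly they compress a change, which limits these contrasts.

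Of the 10 protein-coding neighbours of the 5 risen members, Wnt9a among them, 1 was higher, 1 lower and 8 did not pass. That is near the share of all genes, of which 8.61% passed as higher and 8.95% as lower. Uvrag, an autophagy gene beside Wnt11, was higher by 0.39 ± 0.11 SE (adjusted p = 0.0299, and up to 0.351 without SP-C+ replicates 1, 2 and 3). Its call ended in 6 of the 10 fits without 1 array, at adjusted p-values up to 0.0703, reached without SP-C+ replicate 2. Ppara, a nuclear receptor gene of fatty acid use beside Wnt7b, was lower by -0.33 ± 0.08 SE (adjusted p = 0.0104, but 0.139 without SP-C+ replicates 1, 2 and 3). Fbln2, a matrix protein gene beside Wnt7a, differed by 0.11 (adjusted p = 0.673), and Arf1, a vesicle transport gene on the other side of Wnt3a, by -0.04 (adjusted p = 0.809).

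**Figure D2:**
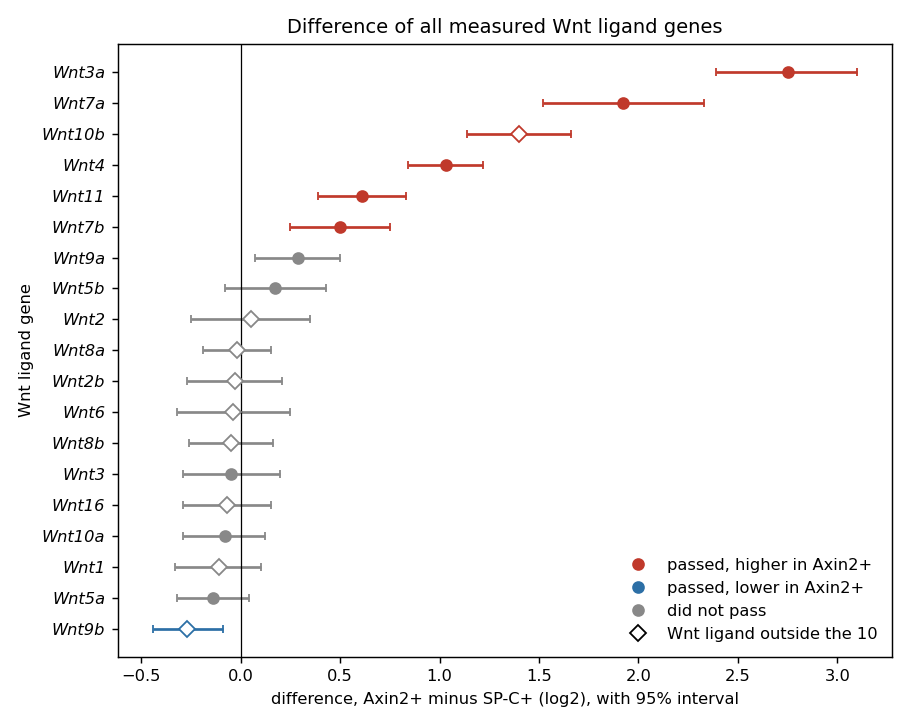
Difference between Axin2+ and SP-C+ arrays (log2, horizontal axis) with its 95% interval from limma for all 19 measured Wnt ligand genes, sorted by size; filled circles are the 10 described genes, open diamonds the other 9, and colour gives the test result. Wnt3a at 2.75 and Wnt7a at 1.92 stand at the top, and Wnt10b at 1.40 is the 1 open diamond that is higher.

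The mouse genome's other 9 Wnt ligand genes were also measured. Wnt10b, which acts in bone, fat and mammary tissue, was higher, with 6.88, 6.87, 6.68, 6.37 and 6.59 on Axin2+ arrays against 5.35, 5.18, 5.59, 5.12 and 5.14 on SP-C+ arrays. Its groups were well apart (1.40 ± 0.12 SE, 2.64-fold, adjusted p = 2.79e-06). Wnt9b was the 1 lower gene, at -0.27 ± 0.08 SE (adjusted p = 0.0396), with overlapping groups. Its call ended in 7 of the 10 fits without 1 array, at adjusted p-values up to 0.100, reached without Axin2+ replicate 3. The remaining 7 differed by -0.11 to 0.05, with adjusted p-values of 0.498 or more. With 1 of 9 higher and 1 lower, this list lay near the shares over all genes, 8.61% and 8.95%.

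The array order of the risen members was set beside markers of the cell types a sort could hold. On Axin2+ arrays 1 to 5 the mean of the 18 AEC1 markers was 11.47, 11.38, 11.75, 11.54 and 11.58, against 9.56, 9.02, 9.07, 9.15 and 9.13 on SP-C+ arrays. All 18 passed as higher, and the share over all genes, for this and the marker lists below, was 8.61%. Axin2+ replicate 3, the array with the most Wnt3a and Wnt7a, also had the highest AEC1 mean. The club cell mean was 7.85, 7.84, 7.90, 7.48 and 7.73 on Axin2+ arrays 1 to 5, against 6.40 to 6.87 on SP-C+ arrays. It was highest on Axin2+ replicate 3 by a narrow margin, and 6 of 10 club markers were higher. Those 6 did not share a peak. Scgb1a1 and Scgb3a2 were highest on replicate 2, Cyp2f2 on replicate 1, Aldh1a1 on replicate 4 and Scgb3a1 on replicate 3, and Cckar was about equal on replicates 1 to 3. Msln, a mesothelial marker, measured 9.10, 8.96, 10.25, 9.32 and 10.05 on Axin2+ arrays, with replicates 3 and 5 highest as for Wnt3a, against 6.19 to 6.75 on SP-C+ arrays. Upk1b, the other mesothelial marker that passed, was lowest on replicates 3 and 5, with 8.17, 7.66, 6.24, 7.38 and 5.85. The mean of the 5 mesothelial markers on Axin2+ arrays was 7.03, 6.8, 6.74, 6.81 and 6.67, highest on replicate 1. Ciliated cell markers averaged 8.05 to 8.34 on Axin2+ and 5.79 to 5.99 on SP-C+ arrays, and 12 of 15 were higher. Their highest Axin2+ arrays were replicates 4 and 5, at 8.34 and 8.29, where Wnt3a measured 7.79 and 8.31. Wnt11 was also highest on these arrays, at 7.48 and 7.45. Wnt4 was highest on Axin2+ replicate 5 (7.14) and Wnt7b on replicate 1 (7.40).

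Mean levels of the 5 mesothelial markers were 6.67 to 7.03 on Axin2+ and 5.6 to 6.08 on SP-C+ arrays. Msln and Upk1b were higher, and 1 of the 5 lay above the array median on every Axin2+ array. Wt1, Upk3b and Lrrn4 differed by 0.04, 0.14 and -0.01 and did not pass. Of the 7 basal and neuroendocrine markers measured, 3 were higher (list mean 5.59 to 5.66 on Axin2+ and 5.29 to 5.54 on SP-C+ arrays). These were the neuroendocrine markers Resp18, Pcsk1 and Ddc, while Chga and the basal markers Trp63, Krt14 and Ngfr did not pass. AEC2 markers were lower in 3 of 16, a count that was 6 with each array centred on its median, 7 with a trended robust variance, 5 without Axin2+ replicate 2 and 1 without SP-C+ replicates 1, 2 and 3. Few non-epithelial markers passed: Pdgfra among 14 mesenchymal and Adgre1 among 11 leukocyte markers were lower, and 0 of 10 endothelial markers passed in limma (2 at an unadjusted p under 0.05). Over all genes, 8.61% passed as higher, 8.95% as lower and 17.6% in either direction. Adgre1 lay at the threshold (adjusted p = 0.0468), and the leukocyte count was 0 without Axin2+ replicate 3 or 5 or SP-C+ replicate 1, 2 or 3, and 3 without SP-C+ replicates 4 and 5. For endothelial markers 1 was lower without SP-C+ replicate 3 or 4 and with each array centred on its median. SP-C+ replicate 1 had the highest endothelial mean, 7.60, against 6.53 to 7.06 on the other SP-C+ arrays. The part of any of these cell types in the ligand results was not tested.

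**Figure D3:**
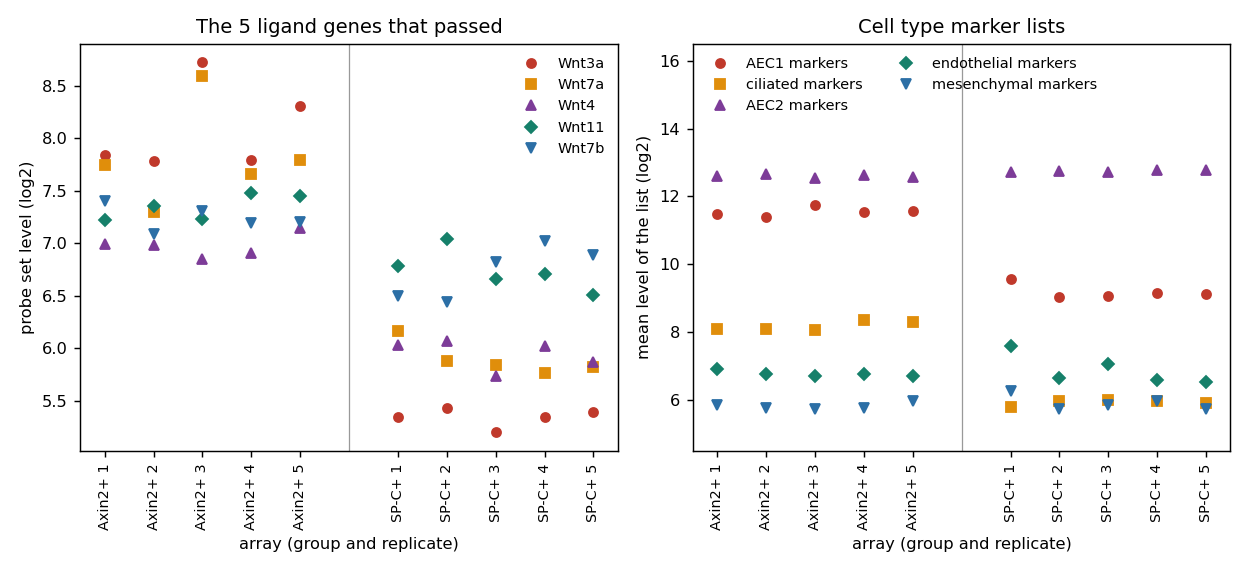
Left, level of the 5 Wnt ligand genes that rose (log2) on each array, and right, mean level of the listed marker genes of 5 cell types (log2) on the same arrays, with Axin2+ replicates before SP-C+ replicates along the horizontal axes. Wnt3a and Wnt7a peak on Axin2+ replicate 3, as does the AEC1 mean of 11.75. The club cell mean, not drawn, is 7.90 there and 7.85 on replicate 1. Wnt11 and the ciliated mean are both highest on Axin2+ replicate 4. The AEC2 mean is 12.55 to 12.65 on Axin2+ and 12.72 to 12.79 on SP-C+ arrays.

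Genes with the most similar profile were found for each risen member as the mean absolute distance over the 10 arrays, after centring each gene on its own mean. A gene with a near-equal difference between the groups is close on this measure by construction. Closest to Wnt3a were Slc39a2, a zinc transporter gene (distance 0.16), Popdc3 (0.17), Tmem108 (0.17), the kinase gene Mak (0.20) and Cfap61, a gene of motile cilia (0.20). Wnt7a lay closest to Paqr5 (0.14), Spats2l (0.16), Prkag3 (0.17), Ust (0.18) and Samhd1 (0.18). Near Wnt4 were Traf3ip1, an intraflagellar transport gene (0.08), Ccdc146 (0.09), Serinc2 (0.09), Efcab6 (0.10) and Adamdec1 (0.10).

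Rgs12 was nearest to Wnt7b (distance 0.06), followed by Zfp579 (0.07), Epb41l2 (0.08), Atp5e (0.09) and Mtg2 (0.09). For Wnt11 the list held Slc16a3, a lactate transporter gene, Porcn and Dipk2a (0.09 each), then Apold1 and Rtn4 (0.10 each). Porcn encodes the acyltransferase that lipidates Wnt proteins, and it is described next.

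Among genes that make Wnt proteins ready for release, Porcn rose. Porcn measured 9.71, 9.71, 9.67, 9.76 and 9.80 on Axin2+ arrays, against 9.24, 9.33, 9.24, 9.12 and 8.67 on SP-C+ arrays. The groups were apart, with SP-C+ replicate 5 lowest (0.61 ± 0.11 SE, 1.53-fold, adjusted p = 0.00216). Of the 11 measured genes of lipidation and secretion, 1 was higher, 1 lower and 9 did not pass, near the shares over all genes of 8.61% higher and 8.95% lower. The lower one was Scd1, a fatty acid desaturase gene (-0.26 ± 0.08 SE, adjusted p = 0.0446). Its call ended in 8 of the 10 fits without 1 array, at adjusted p-values up to 0.115, without Axin2+ replicate 3. Wls, the carrier that takes Wnt proteins to the surface, averaged 11.67 ± 0.07 in Axin2+ and 11.48 ± 0.09 in SP-C+ cells and did not pass (0.18, adjusted p = 0.110).

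Receptor and coreceptor genes split, with 3 of 18 higher, 5 lower and 10 that did not pass, against 8.61% higher and 8.95% lower over all genes. Fzd2 and Fzd1 rose by 0.93 ± 0.15 and 0.66 ± 0.12 SE (adjusted p = 7.61e-04 and 0.00186), and Ror2, the Wnt5a receptor gene, by 0.38 ± 0.12 SE (adjusted p = 0.0459). The Ror2 call ended in 8 of the 10 fits without 1 array, at adjusted p-values up to 0.115, without Axin2+ replicate 3. Among lower genes were Fzd8 (-0.55 ± 0.12 SE), Fzd5 (-0.41 ± 0.10), Fzd7 (-0.41 ± 0.07) and the coreceptor gene Lrp5 (-0.37 ± 0.08). Without SP-C+ replicates 1, 2 and 3, 2 receptor genes were lower, and neither Fzd8 (-0.30, adjusted p = 0.134) nor Fzd5 (-0.24, adjusted p = 0.140) passed. Reck and Adgra2, which are known to relay Wnt7a and Wnt7b signals in brain vessels, did not pass (0.26, adjusted p = 0.0800, and -0.11, adjusted p = 0.516).

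**Figure D4:**
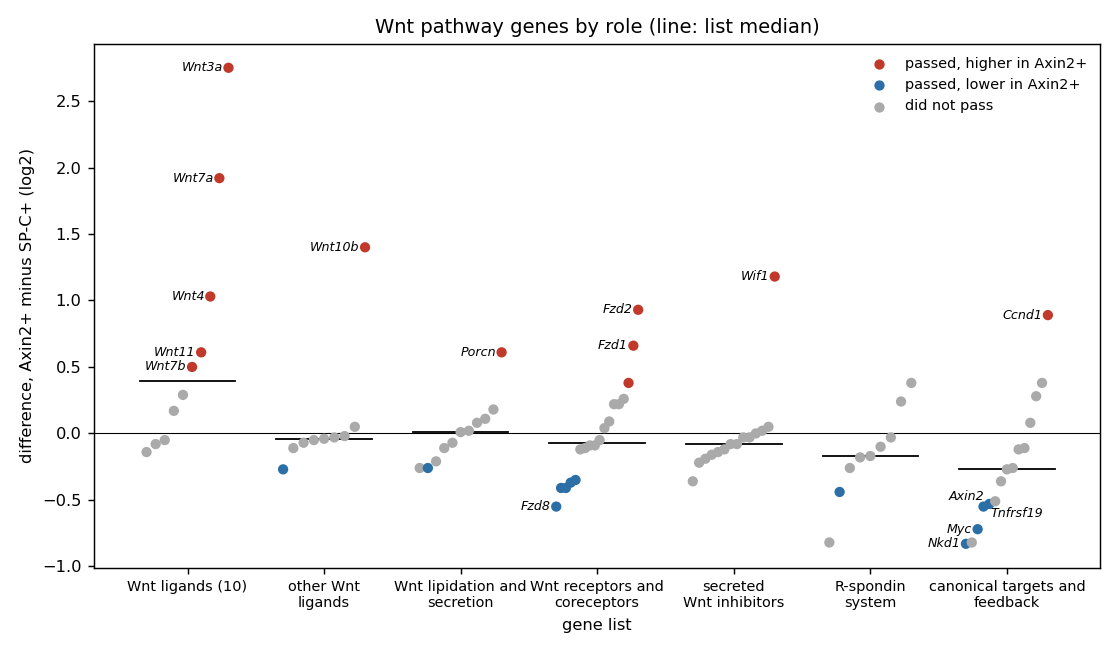
Difference between Axin2+ and SP-C+ arrays (log2, vertical axis) of each measured gene, by role in the Wnt pathway, with red for higher, blue for lower and grey for not passing; black lines are list medians. The median of the 10 ligands, which were chosen with earlier results of these data known, is 0.39. The medians of the 6 lists beside it, that of the other Wnt ligands included, lie between -0.27 and 0.01.

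Secreted Wnt inhibitor genes had 1 of 14 higher and 0 lower in limma (1 lower at an unadjusted p under 0.05), against 8.61% higher and 8.95% lower over all genes. In this list 2 passed as lower without SP-C+ replicates 4 and 5, against 1 without replicates 1, 2 and 3. Wif1, which binds Wnt proteins outside the cell, measured 7.24, 6.87, 7.41, 7.10 and 7.25 on Axin2+ arrays, against 6.01, 6.02, 5.97, 6.04 and 5.92 on SP-C+ arrays, so that its groups were wholly separate (adjusted p = 1.79e-06). In the R-spondin system, which raises Wnt receptor levels, Lgr4 was the 1 of 9 genes to pass, lower by -0.44 ± 0.08 SE (adjusted p = 0.00230). That count is near the 8.95% of all genes that passed as lower. Without SP-C+ replicates 1, 2 and 3, 3 of the 9 R-spondin system genes were lower, and without replicates 4 and 5, 1 was higher and 1 lower.

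Targets and feedback genes of canonical signalling were lower in 4 and higher in 1 of 15, against 8.95% lower and 8.61% higher over all genes. Axin2 averaged 7.93 ± 0.12 in Axin2+ and 8.46 ± 0.06 in SP-C+ cells (-0.53 ± 0.08 SE, adjusted p = 3.28e-04). Only the Axin2+ line carries a Cre driven by Axin2, and any effect of it on the Axin2 transcript was not tested. For this gene, mouse line and Wnt signalling cannot be told apart. Nkd1, an intracellular antagonist gene, was lower by -0.83 ± 0.15 SE (adjusted p = 0.00223) and Myc by -0.72 ± 0.16 SE (adjusted p = 0.00835). Tnfrsf19 was lower by -0.55 ± 0.17 SE (adjusted p = 0.0381), and it missed the threshold in 6 of 10 fits with an array removed, with the highest adjusted p, 0.0936, in the absence of Axin2+ replicate 4. Ccnd1, cyclin D1, was higher by 0.89 ± 0.21 SE (adjusted p = 0.0106). Without SP-C+ replicates 1, 2 and 3, 0 of the 15 were higher and 5 lower, Ccnd1 stood at 0.38 (adjusted p = 0.121) and Myc at -0.31 (adjusted p = 0.186). Without SP-C+ replicates 4 and 5, 3 were higher and 4 lower.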

How the data were processed

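RNA of sorted mouse lung cells was measured on 10 Affymetrix arrays, 5 per group, and groups were taken from the sample titles. Per the submitters' processing notes the authors used oligo, RMA and limma, with no versions or roles given. The deposited values were treated as log2, normalized by the authors, from their range of 1.69 to 14.16 and array medians of 5.89 to 5.97. Of 41345 probe sets, 23521 had 1 gene symbol, and the brightest probe set per gene left 22180 genes. The 2 groups were tested in 1 two-sided model per gene without covariates (lmFit and eBayes of limma 3.58.1, R 4.3.3), after a test on simulated data. The number of arrays limits the precision. Promoter windows came from RefSeq. Named were all 10 members, the 5 most similar genes and the neighbours of each risen member, and up to 4 passing genes per direction and pathway list. Members and lists were chosen with earlier results of these data known. No scan dates were used.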

Additional observations from a re-analysis of the deposited data

Results flagged for a closer look

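An array standing apart from the other 4 of its group was looked for in 30 genes, or 60 groups of arrays, by the gap to the nearest array as a share of the group's range, and 2 groups exceeded Dixon's limit. Chance flags about 1 in 20 such groups. Both cases were SP-C+ replicate 5. For Wnt5a it measured 4.66, while the other SP-C+ arrays lay between 4.86 and 4.94. For Fzd7 it measured 10.69, while the others lay between 10.58 and 10.61.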

How the results depend on the processing

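Across 21 alternative settings, each a single change of normalization, filter, probe set rule, variance model, replicate block or arrays used, Wnt3a, Wnt4, Wnt7a and Wnt11 passed as higher in every one, and Wnt7b in all but the fit without SP-C+ replicates 1, 2 and 3. Between 4 and 6 members passed as higher and 0 as lower, with 5 to 6 higher when 1 array was left out. The median difference of the members ranged from 0.34 to 0.61, the upper value among genes above the 50th percentile, where 7 members were left. Wnt3, which never passed, ranged from -0.14 to 0.02 when 1 array was left out and turned sign to 0.02 without Axin2+ replicate 1, 0.01 without SP-C+ replicate 1 and 0.09 without SP-C+ replicates 1, 2 and 3. No pairing by replicate number was seen: deviations of same-numbered arrays correlated at -0.23 to 0.01, and of differently numbered arrays at -0.19 to 0.21. Such values cannot exclude shared handling of same-numbered samples. With the replicate block 5 members still passed as higher and 0 as lower, and Wnt9b lost its call (adjusted p = 0.0871). Calls of Ror2, Scd1, Tnfrsf19 and Uvrag were also lost with the block. Applying these settings to the pathway and marker lists was chosen after seeing the data. Causes of these shifts were not tested, and some of these fits used fewer arrays or genes.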
